A study of Mus musculus with 4 samples.

Results

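ATF4 is a transcription factor that cells make when amino acids run short, when unfolded proteins collect in the endoplasmic reticulum or when growth signals call for more protein. The data here are the mRNA levels of 36 genes, Atf4 itself and 35 genes known as its targets, among 34821 gene names on the arrays. The genes were taken by name, as every non-control probe that carries one of the 36 names, and all 36 were found. They fall into 11 enzymes of serine, one-carbon and amino acid synthesis, 8 amino acid transporters, 7 tRNA synthetases and 10 stress regulators, Atf4 counted among the last.

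The cells were mouse embryonic fibroblasts (MEFs) undergoing reprogramming to induced pluripotent stem cells (iPSCs). They were grown from pooled male embryos at E13.5 of the Oct4-EGFP transgenic mouse, in which the Oct4 promoter and enhancer drive EGFP, so all groups carried that reporter. All groups received retroviruses for Oct4, Sox2 and Klf4 (OSK), and 2 groups also received a retrovirus for AKT-MER (OSKA), a myristoylated AKT fused to a modified estrogen receptor that is activated by 4-hydroxytamoxifen (4OHT). At 3 days postinfection (dpi) the cells were replated in medium with LIF, glutamine and nonessential amino acids and given either 4OHT or ethanol as mock, and RNA was taken at 8 dpi. The groups were thus OSK without 4OHT, OSK with 4OHT, OSKA without 4OHT and OSKA with 4OHT (AKT-activated cells), with 1 array each. The free-text description of the last array calls its AKT-MER not activated, against its title and the design, and the title was used. No sorting is described for these samples, so they are taken as bulk cultures, in which a lower share of cells expressing a gene and less RNA per cell cannot be told apart.

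ATF4 protein is controlled mainly at translation: when eIF2 is phosphorylated, most translation slows while that of Atf4 mRNA rises, and mTORC1, which acts downstream of AKT, is also known to raise it. With a C/EBP family partner ATF4 binds short composite elements in its targets and switches on the import and synthesis of amino acids, the charging of tRNAs, and regulators such as Trib3 and Ddit3 that limit or redirect the response. The level of Atf4 mRNA is therefore no measure of ATF4 protein, which these arrays did not measure.

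To show which of the 36 genes carry such an element near their start, the 300 bases around each RefSeq start site (250 before and 50 after, build GRCm38.p6) were searched on both strands for TGATGNAA, the core of the C/EBP-ATF response element, where N is any base. A window was at hand for 28 of the 36 genes. Of these, 9 (32.1%) held the element, against 4.51% of the 27025 genes with a window. The sequences below are shown because they hold the element found in these 9 genes. Each is 30 bases, written 5′ to 3′ along the strand on which the element reads TGATGNAA, with the element in capitals.
Asns, chr6:7693214-7693243: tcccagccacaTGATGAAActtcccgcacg
Pycr1, chr11:120643833-120643862: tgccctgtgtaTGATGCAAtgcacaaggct
Slc1a4, chr11:20332699-20332728: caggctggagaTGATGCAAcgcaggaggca
Gars, chr6:55037960-55037989: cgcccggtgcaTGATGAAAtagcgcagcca
Aars, chr8:111033840-111033869: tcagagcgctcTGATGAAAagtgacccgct
Chac1, chr2:119351038-119351067: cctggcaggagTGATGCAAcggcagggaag
Trib3, chr2:152344028-152344057: ccccgcccggcTGATGTAAacctgagctaa
Nupr1, chr7:126625562-126625591: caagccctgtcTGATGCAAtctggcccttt
Vldlr, chr19:27216809-27216838: gctaggagcgcTGATGCAActattgctgct
The elements of Asns and Pycr1 read in the direction of the gene and the others in the opposite direction. That of Asns begins 23 bases before the start site, that of Gars 30 bases and that of Slc1a4 4 bases before it. Those of Pycr1, Nupr1, Chac1 and Vldlr lie farther upstream, 103, 110, 193 and 200 bases before the start. The elements of Aars and Trib3 begin at bases 10 and 15 after the start. The other 19 genes with a window had no match, which says only that these letters are not in that window.

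A longer stretch of Asns, a gene long used to study amino acid starvation, shows where the element sits in a promoter. The 250 bases before the start of Asns, chr6:7693210-7693459 on the minus strand and written in the direction of the gene, are shown with the element in capitals.
Asns promoter: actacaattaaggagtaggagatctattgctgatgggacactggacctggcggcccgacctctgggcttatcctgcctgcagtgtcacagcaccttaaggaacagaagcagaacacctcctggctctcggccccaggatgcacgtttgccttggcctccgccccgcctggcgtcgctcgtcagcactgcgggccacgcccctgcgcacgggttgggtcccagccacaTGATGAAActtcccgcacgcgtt

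A level is the log2 intensity of a gene's brightest probe minus the 75th percentile of its array, so 0 is the brightness of that percentile, and levels of different genes are not compared because probes differ. All 36 genes were well above background on all 4 arrays. A difference is one array minus another on the log2 scale, given for 4OHT (with minus without) within OSK and within OSKA cells, and for AKT-MER (OSKA minus OSK) without and with 4OHT. With 1 array per group no test was possible, and replicates to check a difference against were lacking. The error set beside single differences is that of the scanner software, whose median was 0.20 for a difference (1.15-fold), and it leaves out the variation between cultures. Directions are relative to the 75th percentile: scaled to the spike-in control spots instead, the median of all genes moved from -0.00 to -0.31 for 4OHT in OSK cells, from -0.02 to -0.47 for AKT-MER without 4OHT, from -0.05 to -0.19 for AKT-MER with 4OHT, and stayed at -0.03 for 4OHT in OSKA cells. Every gene of a comparison moves by the same amount, so smaller positive differences given below for single genes can turn sign.

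The labels and cell type could be checked in part. One Esr1 probe had levels of 3.11 and 3.32 on the OSKA arrays and did not rise well above background in OSK cells. All 10 fibroblast markers were well above background on every array, with a summed linear level of 1469 to 1552 times the 75th percentile, and singly they went both ways, with 4OHT differences in OSKA cells from -0.67 for Pdgfrb to 0.49 for Col3a1. The blood markers above background, 3 or 4 of 4, summed to 46.6 and 68.5 on the OSK arrays without and with 4OHT and to 65.3 and 60.3 on the OSKA arrays, and the 5 epithelial markers to 4.35, 3.41, 2.42 and 3.99 in the same order. The 3 of 4 endothelial markers above background summed to between 8.00 and 11.9, and the 4 neural markers to between 17.4 and 24.5, lowest in AKT-activated cells. Of 6 pluripotency markers, 4 were well above background, summing to 3.20, 4.33, 4.50 and 3.05, and Zfp42 and Esrrb were not on any array. How far other cell types contributed to the differences among the 36 genes was not tested.

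Relative to the 75th percentile, most of the 36 genes stood highest in AKT-activated cells. The highest of the 4 levels was on the OSKA array with 4OHT for 27 of 36 genes, against 27.3% of all 19540 genes measured on all arrays. By role, these were 10 of 11 enzymes, 3 of 8 transporters, 6 of 7 tRNA synthetases and 8 of 10 stress regulators. With spike-in scaling, 17 of 36 were highest in AKT-activated cells, against 7.94% of all genes, and 19 in OSK cells without 4OHT, against 79.3%, and Aars alone of the tRNA synthetases was among the former. The lowest level was on the OSK array without 4OHT for 19 genes, against 27.2% of all genes, and for 2 genes, Mthfd2 and Ddit3, with spike-in scaling, against 3.8%. The sizes were mostly modest, and 6 of 36 genes ranged over at least 2-fold across the arrays, against 6.89% of all genes (4 genes with normexp and quantile normalization, against 2.33%, and 5 with spike-in scaling, against 12.7%). These were Trib3, Aldh1l2, Mthfd2, Chac1, Stc2 and Cbs, from the widest range to the narrowest.

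**Figure D1:**
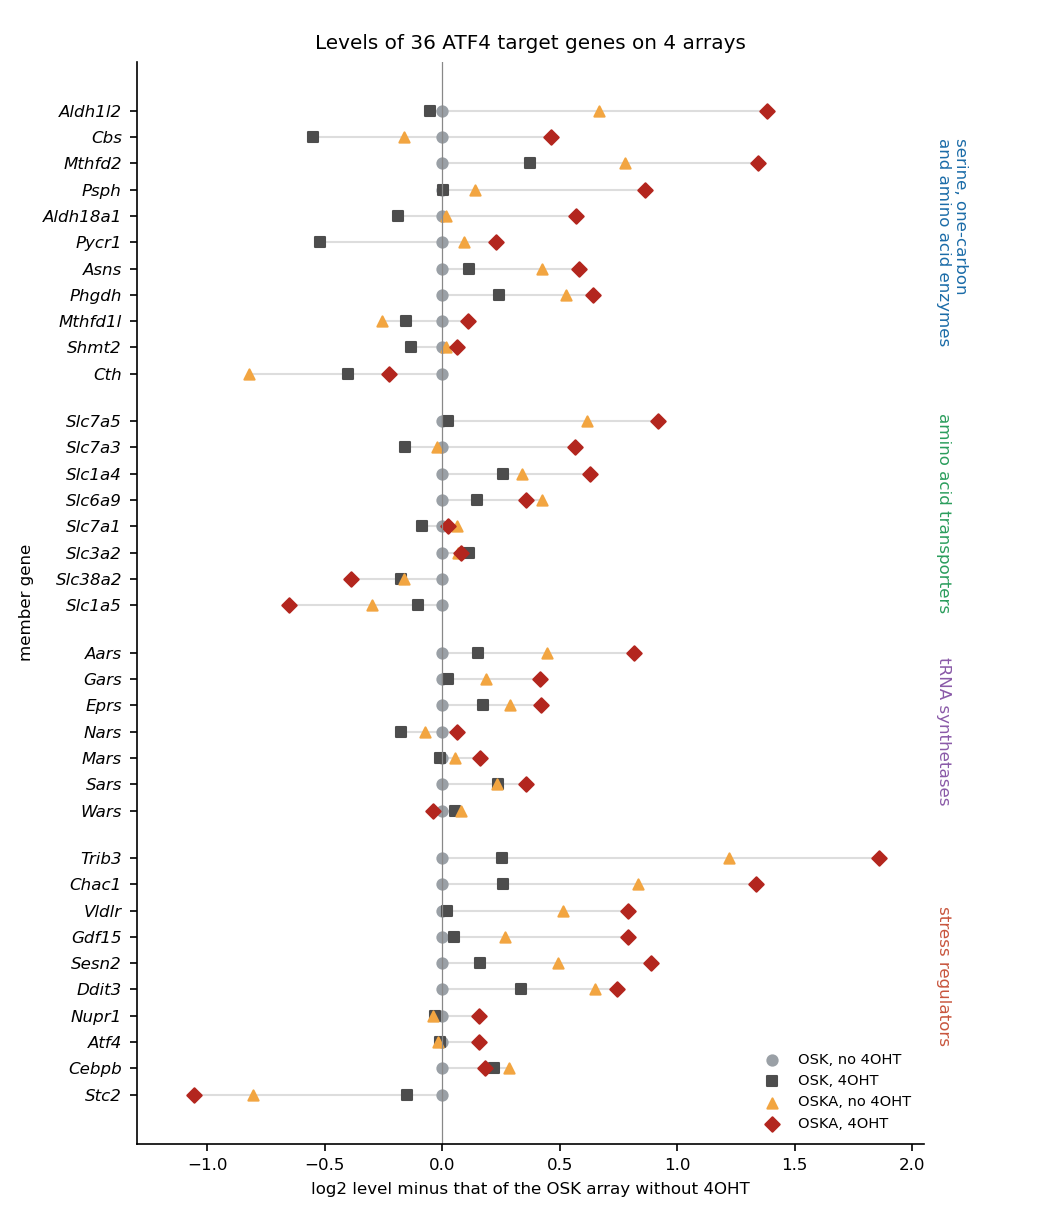
Log2 level of each of the 36 genes on the 4 arrays, drawn as the distance from its level on the OSK array without 4OHT (grey circles at 0), with genes grouped by role and 1 point per array. The red diamonds (OSKA with 4OHT) are the rightmost point for 27 of the 36 genes and lie farthest to the left for Slc1a5, Slc38a2, Wars and Stc2; with spike-in scaling they are the rightmost for 17.

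Without AKT-MER, the genes stood to both sides of 0 with 4OHT. In OSK cells the median difference of the 36 genes was 0.02, beside -0.00 for all 19860 genes measured, and 20 of 36 were above 0, against 49.4% of all genes (with spike-in scaling 2 of 36, against 13.1% of all genes, with a median of -0.28). None was at least 2-fold higher (0.609% of all genes) or lower (0.277%), and none passed 1.5-fold (4.33% higher and 1.63% lower). The median was -0.13 for the enzymes (4 of 11 above 0), -0.03 for the transporters (4 of 8), 0.05 for the tRNA synthetases (5 of 7) and 0.11 for the stress regulators (7 of 10), and all 4 were below 0 with spike-in scaling. The values ran from -0.55 for Cbs to 0.37 for Mthfd2, and Cbs and Pycr1 (-0.52) lay beyond the 5th percentile of all genes, -0.41.

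In OSKA cells, where 4OHT activates AKT, the genes were higher by a median of 0.19, beside -0.03 for all 20299 genes measured. There, 29 of 36 genes were above 0, against 45.2% of all genes, and the same number with spike-in scaling, against 45.7%. None was 2-fold higher (2.01% of all genes) or lower (0.902%). At 1.5-fold, 6 of 36 were higher (5.06% of all genes), namely Psph, Aldh1l2, Trib3, Cbs, Cth and Slc7a3, and 0 were lower (4.64%). The 11 enzymes had the largest median of the role groups, 0.55, and all 11 were above 0. The medians were 0.24 for the stress regulators (8 of 10 above 0), 0.13 for the tRNA synthetases (6 of 7) and -0.01 for the transporters (4 of 8), and each kept its sign with spike-in scaling.

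The 4OHT difference was larger in OSKA than in OSK cells for 25 of 36 genes, against 45.7% of all genes. These differences rest on separate pairs of arrays. The enzymes showed this most, in 10 of 11 genes and by a median of 0.66, beside -0.04 for all genes. The median was 0.23 for the stress regulators, 0.12 for the tRNA synthetases and -0.01 for the transporters. For 12 of 36 genes, 7 of them enzymes, the 4OHT difference was above 0 in OSKA cells and below 0 in OSK cells, against 22.7% of all genes. With spike-in scaling, which lowers the OSK differences of all genes, 27 of 36 did so, 10 of them enzymes, against 39.5% of all genes. Differences of opposite sign that were both larger than the software's error were found for 2 of 36 genes, Cth and Cbs, against 9.61% of all genes, and with spike-in scaling for 11 of 36, against 14.1%. With the mean of a gene's probes they were found for 4 of 36, Mthfd1l and Pycr1 being added.

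**Figure D2:**
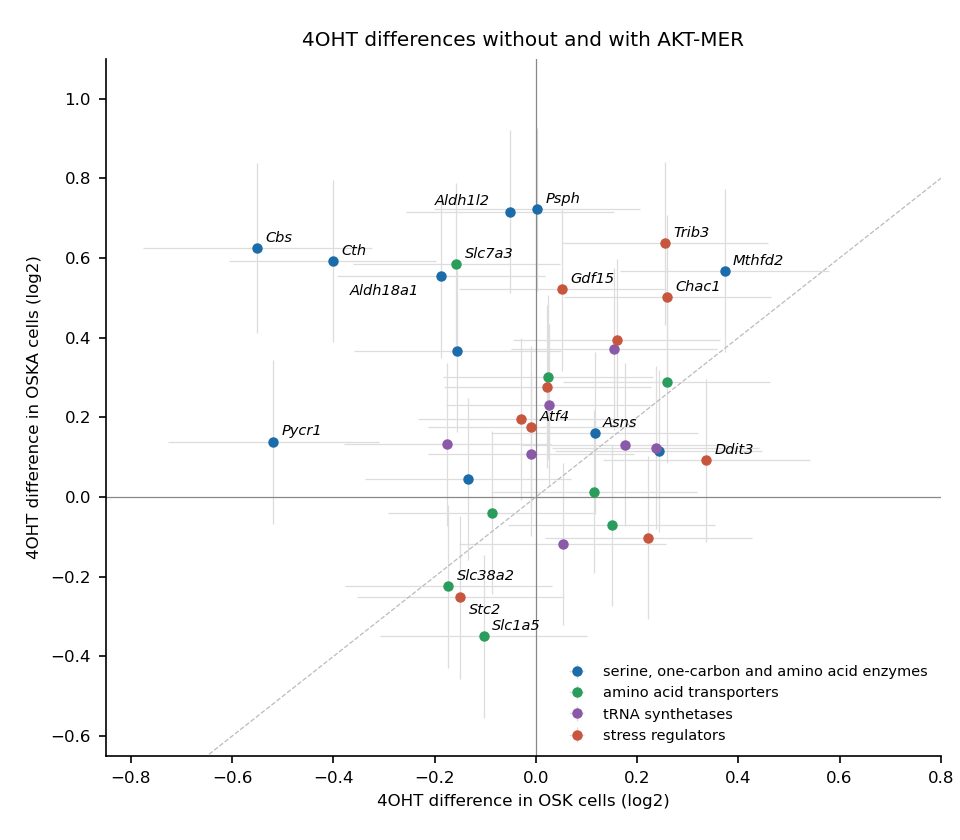
Log2 difference with minus without 4OHT in OSK cells (horizontal) against that in OSKA cells (vertical), 1 point per gene coloured by role, with bars for the software's error on each axis and a dashed line where both are equal. The 11 enzymes (blue) lie above the horizontal zero line and spread widely to both sides, from Cbs, Pycr1 and Cth between -0.55 and -0.40 in OSK cells to Mthfd2 at 0.37, whereas Slc38a2, Slc1a5, Stc2 and, close to 0, Slc7a1 lie below both zero lines; with spike-in scaling the median of the 36 moves left to -0.28.

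The AKT-MER differences compare cells that did and did not receive the AKT-MER virus. Without 4OHT, the median of the 36 genes was 0.16, beside -0.02 for all 20182 genes, and 26 were above 0, against 47% of all genes (with spike-in scaling 9 of 36, against 9.23% of all genes, and a median of -0.29, with all genes at -0.47). Trib3 was 2-fold higher (1.09% of all genes) and none was 2-fold lower (0.932%), whereas with spike-in scaling none was 2-fold higher (0.198% of all genes) and 2, Cth and Stc2, were 2-fold lower (4.73%). At 1.5-fold, 6 were higher (5.66%) and 2, again Cth and Stc2, lower (3.99%). The stress regulators had the highest median, 0.39 with 7 of 10 above 0, and this median was -0.07 with spike-in scaling. The tRNA synthetases had a median of 0.19 (6 of 7 above 0), the enzymes 0.09 (8 of 11) and the transporters 0.07 (5 of 8), and these medians turned to -0.27, -0.36 and -0.39 with spike-in scaling.

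With 4OHT, where the OSKA array is that of AKT-activated cells, the median was 0.38, beside -0.05 for all 19845 genes. Of the 36 genes 30 were above 0, against 42.9% of all genes (28 with spike-in scaling, against 25.2% of all genes, with a median of 0.24). Here 4 of 36 were at least 2-fold higher (1.92% of all genes), namely Trib3, Aldh1l2, Chac1 and Cbs, and none was 2-fold lower (1.12%). With normexp and quantile normalization Cbs was at 0.61 and no longer 2-fold higher. With spike-in scaling Trib3 and Aldh1l2 were 2-fold higher (1.45% of all genes) and Stc2 was 2-fold lower (1.76%). At 1.5-fold, 14 were higher (5.46%) and 1, Stc2, was lower (5.1%). All 11 enzymes were above 0 with a median of 0.75, and the stress regulators followed with 0.57 (8 of 10), the tRNA synthetases with 0.24 (6 of 7) and the transporters with 0.16 (5 of 8). With spike-in scaling these medians were 0.60, 0.42, 0.09 and 0.02 in the same order, with 5 of 7 synthetases and 4 of 8 transporters above 0. This comparison shares its AKT-activated array with the 4OHT difference in OSKA cells, so the 2 are not independent.

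**Figure D3:**
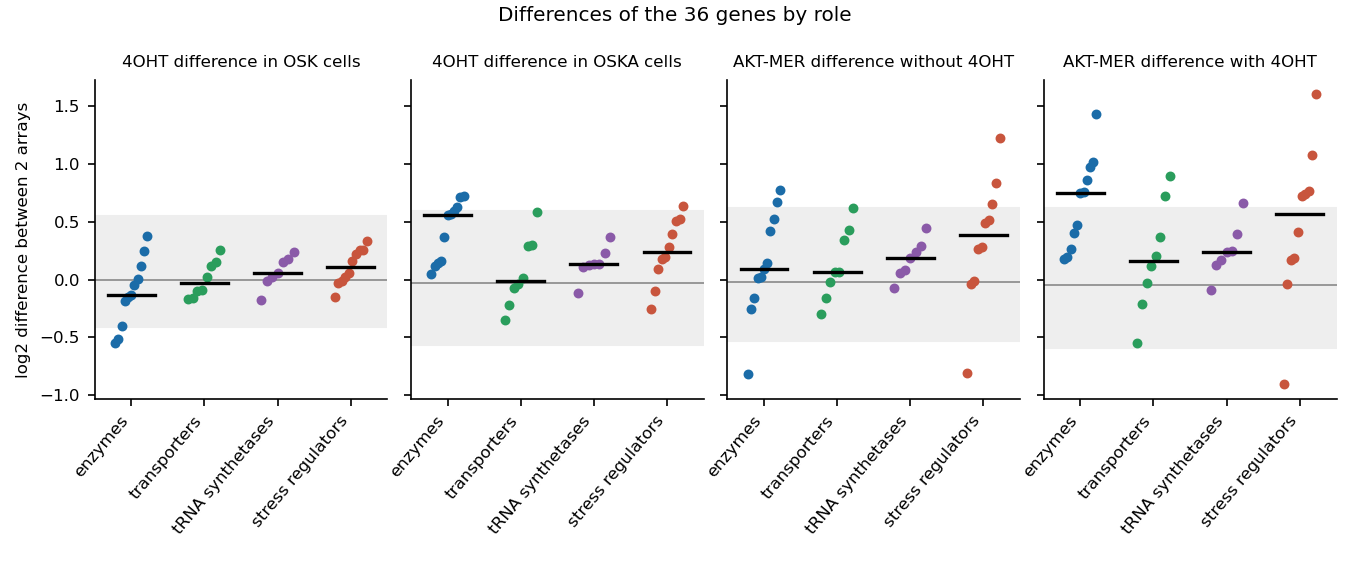
The 4 log2 differences of the 36 genes by role, 1 point per gene, with a black bar at the median of each role, a grey line at the median of all genes and grey shading from the 5th to the 95th percentile of all genes. The enzymes sit at a median of -0.13 for 4OHT in OSK cells and of 0.55 in OSKA cells, while the median of the transporters is near 0 in both. Singly the transporters run from -0.35 to 0.585 for 4OHT in OSKA cells. With spike-in scaling the medians of all roles are below 0 in the first panel and in the third.

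Atf4 mRNA itself ranged over 0.18. Its levels were 7.17 and 7.16 on the OSK arrays without and with 4OHT and 7.15 and 7.33 on the OSKA arrays. The highest, in AKT-activated cells, was 1.13-fold above OSKA cells without 4OHT, a difference of 0.18 beside a software error of 0.20. Quantile normalization, without and with normexp, gave 0.29 and 0.30 for it, and 0.41 and 0.40 in place of 0.17 for AKT-MER with 4OHT. For 4OHT, a second Atf4 probe gave -0.29 in OSK cells, in place of -0.01, and -0.09 in OSKA cells. How far Atf4 mRNA differed between the arrays thus depends on the probe and the normalization. The probe used lies at chr15:80087902-80087961 (mouse build NCBI37, the build of the array files).

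The first enzymes make serine from glucose carbon and pass it on to one-carbon units in the mitochondria. Phgdh, which commits glycolytic 3-phosphoglycerate to serine synthesis, had levels of 3.11 and 3.35 on the OSK arrays and 3.64 and 3.76 on the OSKA arrays. Both OSKA levels were above both OSK levels, by 1.44-fold without and 1.32-fold with 4OHT. Its brightest probe is placed by the file on chromosome 17 under another accession, away from the gene on chromosome 3, and 2 probes of the gene itself gave 0.56 and 0.54 in place of 0.53 without 4OHT and 0.45 and 0.50 in place of 0.40 with it.

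Psph, which releases free serine in the last step, was high on 1 array. Its levels were 1.35 and 1.36 on the OSK arrays, 1.49 in OSKA cells without 4OHT and 2.22 in AKT-activated cells. The 4OHT difference was 0.00 in OSK cells and 0.72 (1.65-fold) in OSKA cells, and its second probe gave -0.10 and 0.67. Shmt2, which splits serine into glycine and a one-carbon unit in mitochondria, differed by at most 0.20 between any arrays.

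Downstream of Shmt2 the picture varied by enzyme. Mthfd2, which oxidizes the one-carbon unit in mitochondria, had levels of -0.37 and 0.01 in OSK cells and 0.41 and 0.98 in OSKA cells. The OSKA levels lay above the OSK levels, by 1.71-fold without and 1.96-fold with 4OHT. Mthfd2 also had the highest positive 4OHT difference of the 36 genes in OSK cells, 0.37, and its 4OHT difference in OSKA cells was 0.57. Aldh1l2, the mitochondrial enzyme that burns formyl-tetrahydrofolate to carbon dioxide and makes NADPH, had levels of -0.59 and -0.64 in OSK cells, 0.08 in OSKA cells without 4OHT and 0.80 in AKT-activated cells. The OSK arrays did not differ beyond the software's error, and the OSKA arrays stood above them in 2 steps of 0.67 and 0.72. In AKT-activated cells Aldh1l2 was 2.70-fold above OSK cells with 4OHT, the largest difference of any of the 11 enzymes. Mthfd1l, which returns the unit to the cytosol as formate, lay between 1.90 and 2.27 on the 4 arrays, and its 4OHT difference was -0.15 in OSK cells and 0.37 in OSKA cells. Its second probe gave -0.33 and 0.46, and AKT-MER differences of the same signs and larger size.

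The proline enzymes differed in which array stood apart. Aldh18a1, which starts proline synthesis from glutamate, had levels of -0.10 and -0.29 in OSK cells, -0.08 in OSKA cells without 4OHT and 0.47 in AKT-activated cells. Its 4OHT difference was -0.19 in OSK cells and 0.55 in OSKA cells. Pycr1, which completes proline in mitochondria, had levels of -0.85, -1.37, -0.76 and -0.62 in the same order. Here the array that stood apart was OSK with 4OHT, which was 0.52 below OSK without 4OHT, and the 1.68-fold AKT-MER difference with 4OHT is taken against that low array. The second Pycr1 probe was well above background on the OSKA arrays, where it gave a 4OHT difference of 0.41 in place of 0.14, and on neither OSK array.

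Both enzymes of transsulfuration, the path from homocysteine to cysteine, moved in opposite directions with 4OHT in the 2 kinds of cells. Opposite differences that were both larger than the software's error were found for 2 of 36 genes, against 9.61% of all genes. Relative to the 75th percentile, they were thus no more common among the 36 genes than among all genes. With spike-in scaling they were found for 11 of 36, against 14.1%. Cbs, which joins homocysteine and serine, had levels of -1.82 and -2.37 on the OSK arrays and -1.98 and -1.35 on the OSKA arrays. Its 4OHT difference was -0.55 in OSK cells and 0.63 in OSKA cells, each larger than its software error of 0.23 and 0.21. Normexp with quantile normalization gave -0.32 and 0.42. Cth, which releases cysteine, had levels of 1.32 and 0.92 in OSK cells and 0.50 and 1.09 in OSKA cells. Its 4OHT difference was -0.40 in OSK cells and 0.59 in OSKA cells, and the second Cth probe gave -0.35 and 0.65. Unlike the other 10 enzymes, Cth was highest in OSK cells without 4OHT, 0.82 above OSKA cells without 4OHT. The lower of the 2 OSKA levels is thus part of its 4OHT difference in OSKA cells.

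Asns, which makes asparagine and carries the element shown above next to its start, had levels of 4.21, 4.32, 4.63 and 4.79. The OSKA levels were above the OSK levels by 1.34-fold without and 1.38-fold with 4OHT, while neither 4OHT difference, 0.12 and 0.16, was larger than the software's error. With spike-in scaling its AKT-MER difference without 4OHT was -0.03.

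**Figure D4:**
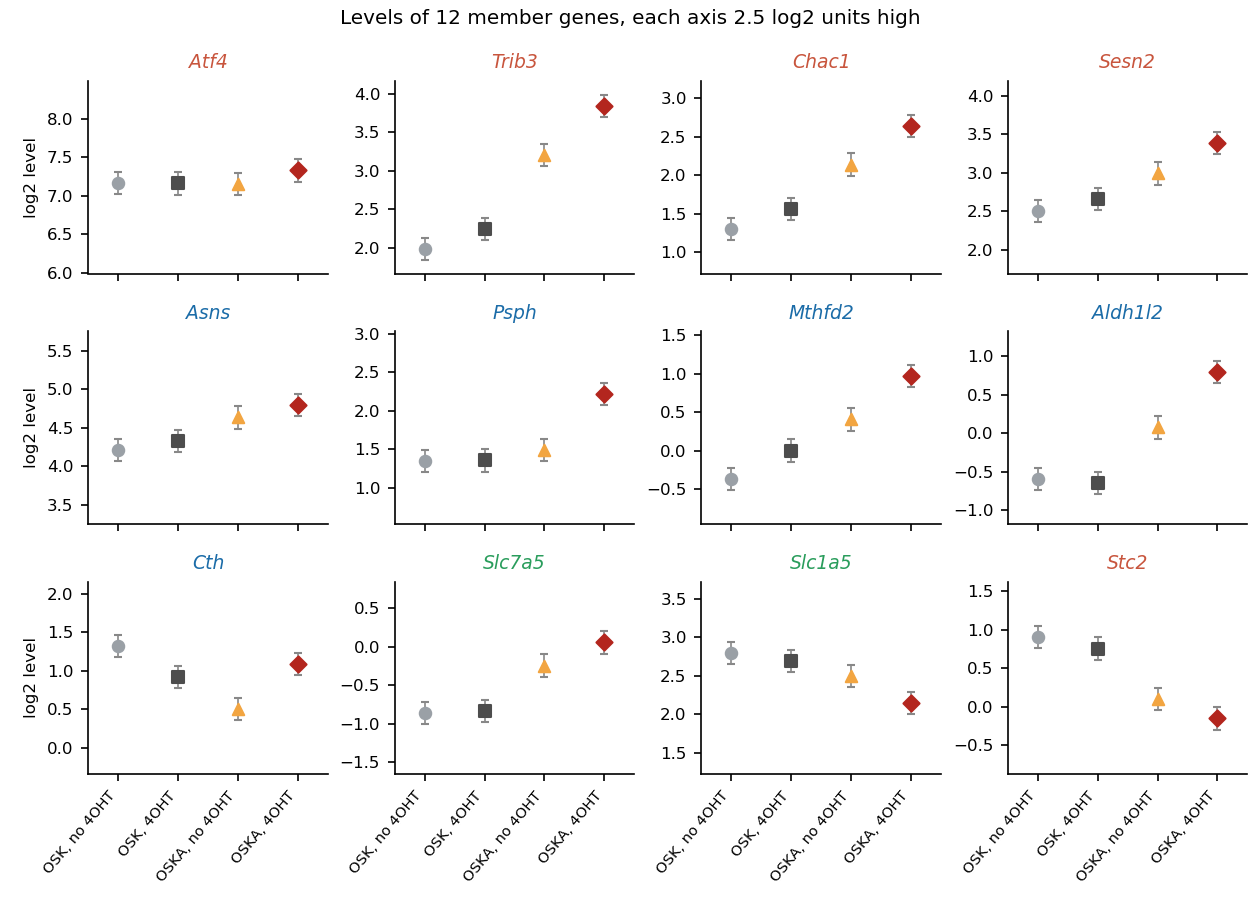
Log2 level on each of the 4 arrays for 12 of the genes, with bars for the software's error of a level and every vertical axis 2.5 log2 units high. Atf4 ranges over 0.18, and Trib3, Chac1, Sesn2, Asns, Mthfd2, Aldh1l2 and Slc7a5 have both OSKA arrays above both OSK arrays. For Slc7a5 a second probe, not drawn, gives -0.24 for AKT-MER without 4OHT. Psph is high in AKT-activated cells alone, and Slc1a5 and Stc2 are lowest there.

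The 8 transporters did not share a pattern. Slc7a5, the light chain of the LAT1 exchanger that brings leucine and other large neutral amino acids into the cell, had levels of -0.86 and -0.84 in OSK cells and -0.25 and 0.05 in OSKA cells. The OSK arrays were alike and both OSKA arrays lay above them, by 1.53-fold without and 1.86-fold with 4OHT. A second probe of the gene gave -0.24 and 0.25 for the same AKT-MER differences and -0.23 in place of 0.02 for 4OHT in OSK cells, so the probes disagree. Slc3a2, the heavy chain that LAT1 needs, stayed between 5.03 and 5.15.

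Slc7a3, a carrier of arginine and lysine, had levels of 0.68, 0.52 and 0.66 and then 1.25 in AKT-activated cells. It was 0.58 above OSKA cells without 4OHT and 0.72 above OSK cells with 4OHT, which is 1.65-fold. Slc7a1, the other carrier of cationic amino acids, stayed between 3.17 and 3.33. Slc1a4, which exchanges alanine, serine and cysteine and has the element 4 bases before its start, went from 1.47 and 1.72 in OSK cells to 1.80 and 2.09 in OSKA cells. Each of its 4 differences was between 0.26 and 0.37. With spike-in scaling its difference was -0.05 for 4OHT in OSK cells and -0.12 for AKT-MER without 4OHT.

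Slc1a5 and Slc38a2 were lowest in AKT-activated cells, as were 37.5% of all genes. Slc1a5, which exchanges glutamine, had levels of 2.80 and 2.69 in OSK cells and 2.50 and 2.15 in OSKA cells. AKT-activated cells were at 0.785-fold of OSKA cells without 4OHT and at 0.685-fold of OSK cells with 4OHT, and the second probe gave differences of -0.24 and -0.52 where the first gave -0.35 and -0.55. Slc38a2, a sodium-coupled carrier of small neutral amino acids including glutamine, was 3.66, 3.49, 3.50 and 3.27, a range of 0.39, with none of the 4 differences larger than 0.22 in size. Slc6a9, the glycine carrier, was 2.29 and 2.44 in OSK cells and 2.71 and 2.64 in OSKA cells. Its AKT-MER difference without 4OHT was 0.43 by this probe and 0.18 by its second probe, and its 4OHT difference in OSK cells 0.15 and -0.08.

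The 7 tRNA synthetases, which load amino acids onto tRNAs, differed little, and their differences ran from -0.17 to 0.66 over all 4 comparisons. Aars, for alanine and with the element just after its start, had levels of 3.66, 3.82, 4.11 and 4.48 in the order of the arrays. It was the synthetase with the widest range, and AKT-activated cells were 1.29-fold above OSKA cells without 4OHT and 1.58-fold above OSK cells with 4OHT. Gars, for glycine, had levels of 6.01, 6.04, 6.20 and 6.43, and its largest difference was 1.31-fold, between AKT-activated cells and OSK cells with 4OHT. Eprs, for glutamate and proline, was 0.75, 0.93, 1.04 and 1.17 and differed by at most 0.29 in any of the 4 comparisons.

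Sars, for serine, was 4.51 in OSK cells without 4OHT and between 4.74 and 4.87 on the other 3 arrays. Nars, for asparagine, was between 2.19 and 2.43 and Mars, for methionine, between 1.63 and 1.80. Wars, for tryptophan, was between 3.84 and 3.96 and was the one synthetase lowest in AKT-activated cells, although its second probe turned the sign of all 4 of its differences. That probe gave -0.27 for 4OHT in OSK cells and 0.17 in OSKA cells, where the first gave 0.05 and -0.12, and -0.33 for AKT-MER without 4OHT in place of 0.08. By the brightest probe, none of the 4 differences of these genes exceeded 0.24.

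Of the 36 genes, a stress regulator had the largest single difference, Trib3 for AKT-MER with 4OHT. Trib3, a pseudokinase that binds AKT and restrains ATF4, had levels of 1.99 and 2.24 on the OSK arrays and 3.21 and 3.84 on the OSKA arrays. Both OSKA arrays lay far above both OSK arrays. With AKT-MER it was 2.33-fold higher without 4OHT and 3.04-fold higher with 4OHT, and with 4OHT it was 1.19-fold higher in OSK cells and 1.56-fold higher in OSKA cells. Trib3 was the widest-ranging of the 36 genes, 1.86 between the lowest and the highest array.

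Chac1, which breaks down glutathione, followed the same order, with levels of 1.30, 1.56, 2.14 and 2.64. The OSKA arrays were 1.78-fold above the OSK arrays without 4OHT and 2.11-fold above with it. Sesn2, which senses leucine and holds back mTORC1, was 2.50, 2.66, 2.99 and 3.38, and AKT-activated cells were 1.31-fold above OSKA cells without 4OHT and 1.66-fold above OSK cells with 4OHT. These 3 genes were ordered alike over the arrays: OSK without 4OHT, OSK with 4OHT, OSKA without 4OHT and AKT-activated cells, from low to high. Ddit3, Vldlr and Gdf15 had the same order, as did genes of each other role, such as Asns, Slc1a4 and Aars. The share of all genes with this order was not counted. With spike-in scaling Trib3, Chac1 and Sesn2 were lowest in OSK cells with 4OHT.

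Ddit3, which encodes CHOP, a factor tied to cell death under lasting stress, had levels of 0.40, 0.74, 1.05 and 1.15. It was 1.57-fold higher with AKT-MER without 4OHT, while its 4OHT difference in OSKA cells, 0.09, was within the software's error. Vldlr, a lipoprotein receptor, was 1.57 and 1.59 in OSK cells and 2.08 and 2.36 in OSKA cells. Its AKT-MER difference was 0.51 without and 0.77 with 4OHT, and the second probe gave 0.37 and 0.31 and a 4OHT difference in OSKA cells of -0.13 in place of 0.28. Gdf15, a secreted factor of the TGF-β family, was 0.28, 0.33 and 0.55 and then 1.07 in AKT-activated cells, 1.44-fold above OSKA cells without 4OHT.

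Stc2, a secreted glycoprotein, went the other way. Its levels were 0.90 and 0.75 in OSK cells and 0.10 and -0.15 in OSKA cells, so both OSKA arrays lay below both OSK arrays. It was at 0.572-fold with AKT-MER without 4OHT and at 0.533-fold with 4OHT, the lowest of the 36 genes in the latter comparison. Cebpb, a partner of ATF4, stayed between 3.36 and 3.65, and Nupr1, a small nuclear stress protein, between 5.35 and 5.54.

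The 9 genes with TGATGNAA in their window can be set beside the 19 without it. The median 4OHT difference in OSKA cells was 0.28 for those with the element, all 9 above 0, and 0.12 for those without it, 14 of 19 above 0. For AKT-MER with 4OHT the medians were 0.66, again with all 9 above 0, and 0.24, with 15 of 19 above 0. For AKT-MER without 4OHT they were 0.42, with 8 of 9 above 0, and 0.14, with 14 of 19 above 0. In OSK cells the medians for 4OHT were 0.12 and 0.05, with 7 of 9 and 11 of 19 above 0, and in these last comparisons both medians turn below 0 with spike-in scaling. The ranges overlapped in each comparison. Psph, without the element, had a larger 4OHT difference in OSKA cells (0.72) than any of the 9 genes with it, and Nupr1, with it, differed by at most 0.20 in any comparison. No test was made of these few genes.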

How the data were processed

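Total RNA was labelled with Cy3 from 100 ng per sample and hybridised to Agilent 8x60k arrays, 1 per group and all 4 on 1 slide, so position on the slide and group cannot be told apart. According to the labels and the methods, the authors extracted the spots with Agilent Feature Extraction 10.7.3.1. The deposited files give a linear-scale intensity per spot, corrected for background and spatial trend and not normalized between arrays. The series matrix holds the same intensity as deposited by the authors, rounded, with ratios of 0.995 to 1.005 to the scanner values.

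Each array had 62976 spots, 59305 of them not controls, for 55681 probes. Between 104 and 155 outlier spots per array were left out, none was saturated, and 52.4% to 55.4% were well above background. Each array's 75th percentile was subtracted from its log2 intensities, spots of 1 probe were averaged, and each gene name was represented by its brightest probe. A difference was taken where that probe was well above background on both arrays. The 36 genes had 49 probes, 24 genes had 1 probe and 12 had more, and where another probe's difference was farther from that of the brightest than the software's error this is said beside the gene. The accessions of 46 probes were in the RefSeq table, 45 with the same symbol (Mars is now Mars1). Match to related genes or pseudogenes was not analysed here.

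There were no replicates, so no test was run and the number of arrays limits the precision. Spots of repeated probes gave an SD of 0.095 for a difference. Genes were counted at 2-fold, with 1.5-fold as an alternative, beside the share of all genes past the same fold. Values on the 4 arrays are given for Atf4 and, in each role group, for the genes at least 1.5-fold apart in any comparison or the 3 with the widest range. The members, lists and alternatives were chosen with earlier results of these data known. The alternatives were normexp with an offset of 50 and quantile normalization (limma 3.58.1, R 4.3.3), quantile normalization of the processed signal, spike-in scaling, no filter and a stricter filter on dim probes, the mean of a gene's probes, and the series matrix. The calculation was tested on simulated data and run in Python 3.11.15 with pandas 2.3.3 and numpy 2.4.6.

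RefSeq sequences (GRCm38.p6) were matched by symbol. Cth, Slc7a5, Slc7a3, Slc1a5, Aldh1l2, Wars, Nars and Mars had no entry. Where a window held several matches, the last is given, and 1 sequence is not reported here.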

Additional observations from a re-analysis of the deposited data

Results flagged for a closer look

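Of the 36 genes, Cth and Cbs had 4OHT differences of opposite sign in OSK and OSKA cells that were both larger than the software's error, as did 9.61% of all genes. The 4OHT difference in OSKA cells exceeded that in OSK cells by 0.99 for Cth and by 1.18 for Cbs (log2). With 1 array per group, this difference was not tested. With normexp and quantile normalization the differences of Cbs were -0.32 and 0.42 in place of -0.55 and 0.63. With spike-in scaling, which lowers the differences of all genes in OSK cells alike, 11 genes met this, beside 14.1% of all genes. With the mean of a gene's probes 4 genes met this, Mthfd1l and Pycr1 being added. The share of all genes was not worked out for that setting.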

How the results depend on the processing

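Scaling each array to its spike-in control spots gave medians of the 36 genes of -0.28 for 4OHT in OSK cells and -0.29 for AKT-MER without 4OHT. The sign turned in both. The median for AKT-MER with 4OHT was 0.24. With that scaling, 0 genes were 2-fold higher and 2 were 2-fold lower for AKT-MER without 4OHT, 2 were higher and 1 was lower for AKT-MER with 4OHT, and 17 genes had their highest level in AKT-activated cells, a count added after seeing the data. This scaling shifts all genes of a comparison alike. Relative to the median of all genes, the medians of the 36 genes were 0.03, 0.22, 0.18 and 0.43 under both scalings, for 4OHT in OSK cells, 4OHT in OSKA cells, AKT-MER without and AKT-MER with 4OHT. With no filter on dim probes, which moves the median of all genes, they were -0.05, 0.12, 0.25 and 0.50. At 1.5-fold in place of 2-fold, 6 genes were higher for 4OHT in OSKA cells, 6 were higher and 2 lower for AKT-MER without 4OHT, and 14 were higher and 1 lower for AKT-MER with 4OHT. With normexp and quantile normalization the median of the enzymes for 4OHT in OSKA cells was 0.42 in place of 0.55. The cause was not tested. Under quantile normalization of the processed signal and the mean of all probes, each of the 17 summary results moved by less than the spread between repeated spots or, for counts, by less than 1.5 times. Changing the filter on dim probes could not move them, because all 36 genes were well above background on every array. The series matrix also gave the same results, but it holds the same intensities, rounded. No single gene with a 2-fold difference changed sign. No paired analysis was possible because each group had 1 array. For the same reason no replicate could be left out, and the variation between cultures is unknown.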

Other observations

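Other genes of the same pathways were taken from lists chosen with earlier results known, and the shares of all genes to read them against are 2.01% at least 2-fold higher and 45.2% above 0 with 4OHT in OSKA cells. Of 19 other genes of the eIF2 and ATF4 pathway, 2 were at least 2-fold higher with 4OHT in OSKA cells, Slc7a11 and Fgf21, the latter named after its values were seen. Slc7a11, which imports cystine, had levels of -3.30 and -4.30 on the OSK arrays without and with 4OHT and -3.70 and -2.24 on the OSKA arrays. It was thus lowest in OSK cells with 4OHT and highest in AKT-activated cells, where its 4OHT difference was 1.46. Its lowest level was close to background, since the blood marker Hba-a1, at -4.48 on that array, was not well above it. Ddit4, an inhibitor of mTORC1, had levels of 4.04, 3.93, 4.53 and 5.41 in the same order, and Eif2ak2, a kinase of eIF2, had levels of 0.77, 0.77, 1.29 and 1.61. Fgf21, a secreted hormone, was well above background on the OSKA arrays alone, with levels of -4.43 and -3.29 there, the first close to background. The list as a whole had a median 4OHT difference of 0.06 in OSKA cells, with 11 of 19 above 0.

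Of 19 other serine and folate enzymes 16 were measured, and none was 2-fold apart in any comparison. Their median 4OHT difference in OSKA cells was -0.11, with 7 of 16 above 0. Psat1, the serine enzyme between Phgdh and Psph, was named for its place in the path and not for its values, and its levels of 3.28, 3.24, 3.33 and 3.43 differed by at most 0.20. Its second probe gave -0.35 for 4OHT in OSK cells and -0.31 for AKT-MER without 4OHT, where the first gave -0.04 and 0.06. The widest ranges were those of Gcat, which breaks down threonine, from 2.16 in OSK cells without 4OHT to 1.51 in AKT-activated cells, Gldc (0.59) and Mthfd1 (0.58).

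Of 13 other amino acid transporters measured, 1 was 2-fold higher with AKT-MER in the presence of 4OHT, against 1.92% of all genes. This was Slc1a3, a glutamate carrier, with levels of -1.94, -2.05, -1.54 and -1.01. Its difference was 1.04. Spike-in scaling, which moves the median of all genes from -0.05 to -0.19 here, takes it below 2-fold. Slc7a8 ranged over 0.94 and was lowest in OSK cells without 4OHT, and Slc43a1 ranged over 0.85 and was lowest in AKT-activated cells. The 13 other cytosolic tRNA synthetases had a median 4OHT difference of 0.09 in OSKA cells, with 11 above 0, and Dars, Yars and Cars had the widest ranges, 0.90, 0.72 and 0.50. The 15 mitochondrial synthetases measured had a median of -0.06, with 5 above 0, and Wars2, Iars2 and Vars2 had the widest ranges, 0.56, 0.50 and 0.47.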
